A study of Populus alba x Populus glandulosa with 12 samples.

Results

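Stay-green proteins and chlorophyll b reductases carry out the opening steps by which a leaf takes its chlorophyll apart. The genes for them were taken from the annotation of 84K poplar as every gene model whose KEGG orthology (KO) entry reads SGR, SGRL (K22013) or contains NYC1 (NOL, NYC1, K13606). This rule found 11 of 85392 gene models, of which 9 carry the name SGR, SGRL and 2 the name NOL, NYC1. Leaves of the wild-type hybrid 84K poplar (Populus alba x Populus glandulosa) were sampled on days 0, 3, 6 and 9 of drought, and total RNA was sequenced, with 3 libraries per day and 12 in all. Day 0, named CK in the tables, is the control. No plants without drought were sampled on the later days, and the labels give each day a batch of its own, so whenever days are compared, drought, elapsed time and batch cannot be told apart.

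In Arabidopsis, the stay-green proteins SGR remove the central magnesium from chlorophyll a in senescing leaves, and plants that lack them stay green. A related protein, SGRL (stay-green-like), is known there mainly from green leaves before senescence. Chlorophyll b cannot enter this route until it has been turned into chlorophyll a. NYC1 and its relative NOL, the chlorophyll b reductases, make the opening step of that conversion and are needed to dismantle the light-harvesting complexes that hold chlorophyll b. The KO name SGR, SGRL covers both kinds of stay-green gene, and the tables do not say which model is which. Both NOL, NYC1 models carried a gene ontology term for chlorophyll breakdown, while of the 9 stay-green models 7 carried no gene ontology term and 2 only the term membrane.

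Values are FPKM (fragments per transcript length and per sequenced fragment total) as deposited, which can be compared between genes because they are per length. Each library's FPKM added up to between 684857 and 732119. Sequencing depth is not given by FPKM, and the spacing of low values placed the other libraries only roughly, between 0.901 and 1.17 times the depth of the first control library. The leaf label was checked on day 0, where the 6 genes named LHCB2 summed to between 2375 and 2431 FPKM and the 8 named rbcS to between 5241 and 5392 FPKM. Changes are differences of log2(FPKM + 1) from limma over all 40736 genes with at least 1 FPKM in at least 3 libraries, and "rose" and "fell" mean an adjusted p under 0.05. Whether separate plants gave the 3 libraries of each day is not stated, so the p-values rest only on how far these samples varied, and that variation may be technical. In whole leaves, fewer cells of a type and less RNA per cell cannot be told apart.

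Of the 11 genes, 9 were tested. The stay-green model Pag.A02G001987.v3.1 was listed at 0 in all 12 libraries, and Pag.B01G001207.v3.1 lay between 0 and 0.26 FPKM, at 0 in 4 libraries. Pag.B05G001855.v3.1 reached 1 FPKM in no more than 3 libraries, those of day 0, and Pag.A01G001309.v3.1 only in the 9 drought libraries. These passed the filter through the days on which they were high, so counts over the tested genes are descriptions. Model names carry an A or a B followed by a chromosome number. The hybrid holds a gene set from each parent, and the tables do not say which letter stands for which parent. Close copies can share reads, and the sources used here do not say how the authors divided such reads, so the split of a level between an A and a B model is uncertain.

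In the sampled leaves, 7 of the 9 tested genes were raised from day 3 on, had their highest mean on day 6 and a lower mean, still above the control, on day 9. These were both chlorophyll b reductase genes and 5 stay-green genes. The other 2 stay-green genes, Pag.A05G001879.v3.1 and Pag.B05G001855.v3.1, ran the opposite way and were at or near 0 from day 6. Of all tested genes, 22.6%, 29.2% and 30.9% rose on days 3, 6 and 9, and 25.2%, 47.6% and 46.0% fell. The stay-green genes together summed to 61.2 ± 2.51 FPKM before drought (SD, n = 3), then to 162 ± 3.95 after 3 days, 249.9 ± 9.95 after 6 and 192 ± 7.15 after 9. The pair of reductase genes summed to 12.9 ± 0.427, 56.2 ± 2.05, 95.9 ± 1.28 and 74.9 ± 2.90 FPKM on the same days. The plot of FPKM by library shows both courses.

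**Figure D1:**
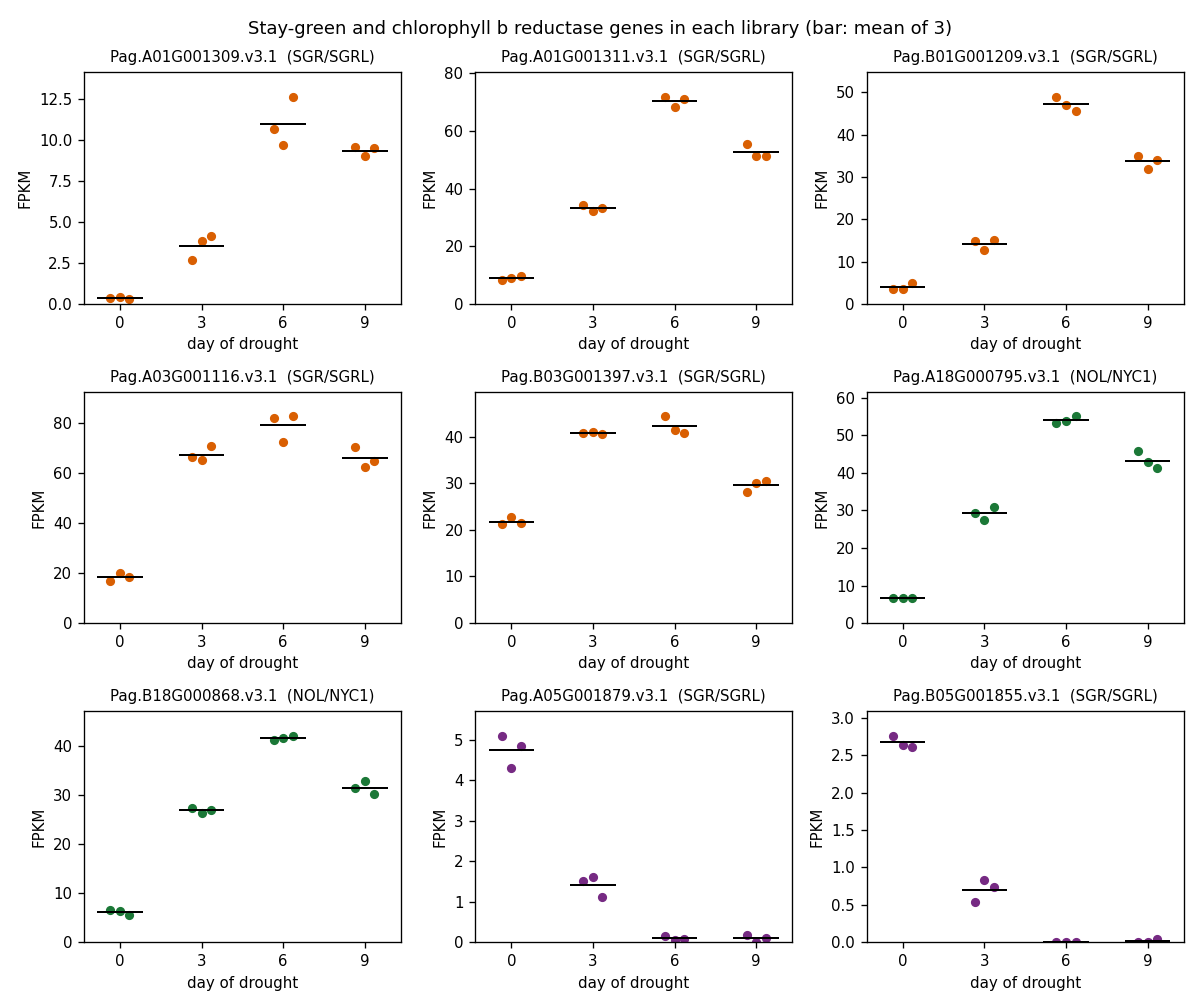
FPKM (y axis, from 0, scaled for each gene) of the 9 tested genes against the day of drought (x axis), with 1 point per library, 3 libraries a day and a bar at their mean. Orange marks stay-green genes that rose, purple the 2 stay-green genes that fell and green the chlorophyll b reductase genes. The 7 genes that rose have their highest mean on day 6, and Pag.B05G001855.v3.1 is listed at 0 in all 3 libraries of that day.

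The chlorophyll b reductase gene Pag.A18G000795.v3.1 had 6.56, 6.63 and 6.77 FPKM in the libraries of day 0 and 29.42, 27.49 and 30.82 on day 3. It reached 53.36, 53.95 and 55.05 FPKM on day 6 and had 45.75, 42.88 and 41.21 on day 9. Each day's libraries lay apart from those of every other day, and the mean was 8.13-fold that of the control on day 6. The log2 changes against the control were 1.98, 2.85 and 2.53 after 3, 6 and 9 days (each with an SE of 0.05), with an adjusted p of 5.71e-11, 4.98e-13 and 1.28e-12 from limma in that order.

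Its B counterpart, Pag.B18G000868.v3.1, started from nearly the same level, with 6.54, 6.47 and 5.59 FPKM on day 0. It had 27.42, 26.38 and 26.99 FPKM after 3 days, 41.39, 41.66 and 42.22 after 6 and 31.44, 32.88 and 30.39 after 9. The libraries of the 4 days did not overlap, and the day means were 4.34-fold, 6.73-fold and 5.09-fold that of the control. The log2 change of 2.57 (SE 0.05) on day 6 had an adjusted p of 1.99e-12 from limma.

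Among the stay-green genes, Pag.A03G001116.v3.1 had the highest mean on each of the 3 drought days. Its libraries read 16.85, 20.20 and 18.55 FPKM on day 0 and 66.27, 65.22 and 70.71 on day 3. On day 6 they read 81.99, 72.50 and 82.70 FPKM, and on day 9 70.49, 62.53 and 65.05. The control libraries lay far below all others, and those of day 6 lay above those of days 3 and 9, which overlapped each other. The log2 changes were 1.81, 2.04 and 1.78 after 3, 6 and 9 days (each with an SE of 0.07), with an adjusted p of 2.96e-09, 1.84e-10 and 6.26e-10 from limma.

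Pag.B03G001397.v3.1, the most abundant stay-green gene before drought, changed least of those that rose. It had 21.18, 22.79 and 21.43 FPKM in the control, 40.85, 41.05 and 40.63 after 3 days, 44.38, 41.36 and 40.91 after 6 and 28.15, 30.18 and 30.45 after 9. Days 3 and 6 overlapped each other, and the day 9 libraries lay between those of day 0 and day 6. The day means were 1.87-fold, 1.94-fold and 1.36-fold that of the control, and on day 9 the log2 difference was 0.42 with an SE of 0.05 (limma, adjusted p 4.49e-06).

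The stay-green genes of the 01 series rose more steeply between days 3 and 6. Pag.A01G001311.v3.1 had 8.38, 8.98 and 9.64 FPKM in the control, 34.24, 32.36 and 33.21 after 3 days, 71.76, 68.21 and 71.04 after 6 and 55.45, 51.26 and 51.21 after 9. Its libraries did not overlap between any of the days, and by day 6 it was 2.84 higher on the log2 scale with an SE of 0.05 (limma, adjusted p 7.21e-13). Pag.B01G001209.v3.1 had 3.56, 3.51 and 4.88 FPKM in the control, 14.80, 12.84 and 15.10 after 3 days, 48.84, 46.90 and 45.62 after 6 and 34.99, 31.91 and 34.06 after 9. Here too the days lay apart, and the mean of day 6 was 11.8-fold that of day 0.

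A further model of that series, Pag.A01G001309.v3.1, was barely present before drought. Its libraries had 0.36, 0.39 and 0.27 FPKM in the control and 2.65, 3.82 and 4.14 after 3 days, then 10.67, 9.68 and 12.61 after 6 and 9.58, 9.00 and 9.49 after 9. The day means were 10.4-fold, 32.3-fold and 27.5-fold that of day 0, while the log2 changes were 1.75, 3.15 and 2.95 (each with an SE of 0.12) because the added 1 FPKM compresses low values. Since this gene passed the filter only through the drought days, its test is taken from the fit without the filter, where the adjusted p from limma was 1.63e-06 on day 3 and 3.17e-09 on day 6. In contrast, Pag.B01G001207.v3.1 stayed at or below 0.26 FPKM, and without the filter its log2 changes of 0.08, -0.04 and 0.11 had an adjusted p from limma of 0.675, 0.828 and 0.426.

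**Figure D2:**
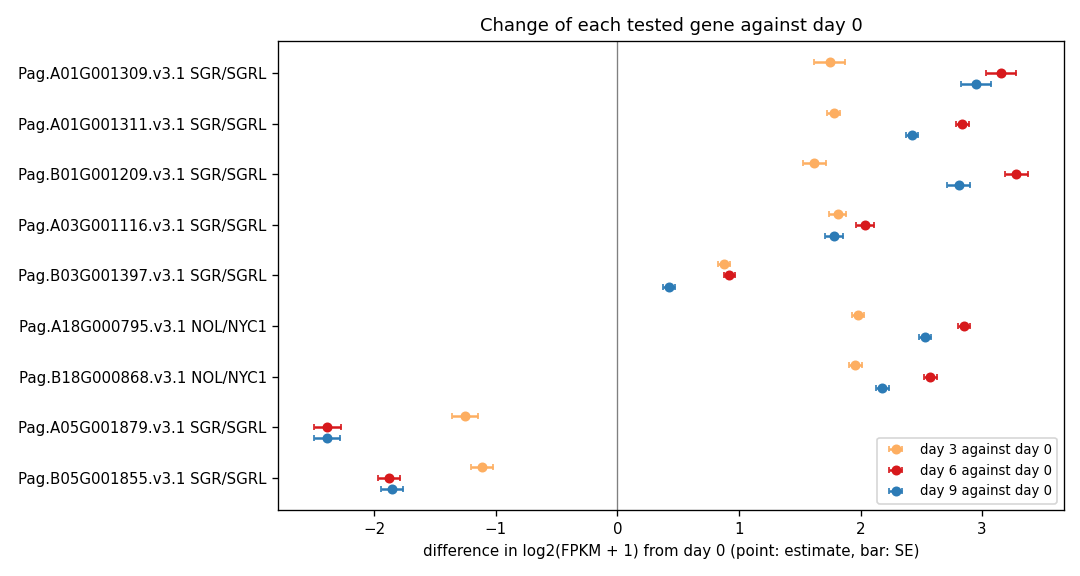
Estimated difference in log2(FPKM + 1) from day 0 (x axis) for the 9 tested genes (y axis), with days 3, 6 and 9 in separate colours and bars of 1 SE from limma. The changes on day 6 run from -2.38 for Pag.A05G001879.v3.1 to 3.28 for Pag.B01G001209.v3.1.

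The 2 stay-green genes that fell were low from the start. Pag.A05G001879.v3.1 had 5.10, 4.30 and 4.85 FPKM in the control and 1.52, 1.61 and 1.11 after 3 days, then 0.15, 0.06 and 0.09 after 6 and 0.19, 0 and 0.11 after 9. Pag.B05G001855.v3.1 had 2.76, 2.64 and 2.61 FPKM on day 0 and 0.54, 0.83 and 0.74 on day 3, was listed at 0 in all 3 libraries of day 6 and had 0, 0 and 0.05 on day 9. In both genes the 3 control libraries lay above every drought library, and days 6 and 9 overlapped. The log2 change of Pag.A05G001879.v3.1 was -1.26, -2.38 and -2.39 after 3, 6 and 9 days (each with an SE of 0.11), and for Pag.B05G001855.v3.1 it was -1.11, -1.88 and -1.85 (each with an SE of 0.09). Pag.A05G001879.v3.1 reached 1 FPKM only on days 0 and 3 and Pag.B05G001855.v3.1 only on day 0, so their tests too are taken from the fit without the filter. There the adjusted p from limma was 3.92e-06, 5.35e-09 and 5.47e-09 for Pag.A05G001879.v3.1 and 7.30e-07, 2.37e-09 and 2.70e-09 for Pag.B05G001855.v3.1. Together these genes made up 7.42 ± 0.461 of the 61.2 FPKM of stay-green transcripts on day 0 and 0.1 ± 0.0458 of the 249.9 FPKM on day 6.

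Against the control, 7 of the 9 tested genes rose and 2 fell on each of days 3, 6 and 9, with a median log2 change of 1.75, 2.57 and 2.18. Over all tested genes the share called was 47.7%, 76.8% and 76.9%, so on the later days a call alone sets these genes little apart. Of all tested genes 22.6%, 29.2% and 30.9% rose and 25.2%, 47.6% and 46.0% fell, and their median log2 change was -0.01, -0.21 and -0.18. Median-ratio scaling moved the medians of days 6 and 9 to 0.008 and -0.0004 and the shares of all genes to 38.5% higher and 37.8% lower on day 6 and 38.3% and 38.2% on day 9, and the 7 rises and 2 falls were called under it as well. The libraries of the compared days did not overlap for any of the 9 genes on days 3, 6 and 9, against 57.4%, 79.4% and 79.2% of all tested genes. The 3 comparisons share their control libraries. The authors' deposited table of selected genes for day 9 lists 8 of the 11 genes, leaving out Pag.B03G001397.v3.1 and both untested models.

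Between day 3 and day 6, 6 genes rose further, 2 fell further and 1 did not pass, where 72.6% of all tested genes were called, 25.7% as higher and 46.9% as lower. The libraries of these days did not overlap for 8 of the 9 genes, against 75.1% of all tested genes. The further rise was largest for Pag.B01G001209.v3.1, at 1.66 on the log2 scale with an SE of 0.10 (limma, adjusted p 2.45e-08), and was 0.87 (SE 0.05) and 0.61 (SE 0.05) for the reductase genes. That of Pag.A03G001116.v3.1 was 0.23 with an SE of 0.07 (limma, adjusted p 0.0153), and without replicate 2 of day 3 or replicate 1 or 3 of day 6 its adjusted p was between 0.0521 and 0.0586. Pag.B03G001397.v3.1 did not pass, at 0.05 with an SE of 0.05 (limma, adjusted p 0.389), but with median-ratio scaling it was 0.32 with an adjusted p of 6.27e-05. Median-ratio scaling moved the median over all genes in this comparison from -0.22 to 0.004, with 36.4% higher and 35.2% lower.

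Between day 6 and day 9 the direction turned. Of the 9 tested genes 6 fell, 0 rose and 3 did not pass, where 21.7% of all tested genes were called, 8.73% as lower and 12.9% as higher (12.8% and 9.6% with median-ratio scaling). The libraries of these days did not overlap for 7 of the 9 genes, against 37.0% of all tested genes. The falls were small, from -0.26 (Pag.A03G001116.v3.1) to -0.50 (Pag.B03G001397.v3.1) on the log2 scale, and the day 9 means of the 6 genes lay between 0.701 and 0.835 times those of day 6. Both reductase genes fell, Pag.A18G000795.v3.1 by 0.32 (SE 0.05; limma, adjusted p 0.00120) and Pag.B18G000868.v3.1 by 0.39 (SE 0.05; limma, adjusted p 5.14e-04). The call of Pag.A03G001116.v3.1 (adjusted p of 0.0282 from limma) was lost, at between 0.0773 and 0.0952, without replicate 1 or 3 of day 6 or replicate 2 or 3 of day 9. Pag.A01G001309.v3.1 had a log2 change of -0.20 and did not pass (adjusted p of 0.278 from limma), although its libraries of the 2 days did not overlap. The other genes that did not pass, Pag.A05G001879.v3.1 and Pag.B05G001855.v3.1, were already at or below 0.15 FPKM on day 6, so hardly any further fall could be seen.

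The order of the genes by level changed with drought. On day 0 it ran from Pag.B03G001397.v3.1 (21.8 FPKM) through Pag.A03G001116.v3.1 (18.5) and Pag.A01G001311.v3.1 (9.00) to the reductase genes Pag.A18G000795.v3.1 (6.65) and Pag.B18G000868.v3.1 (6.20). Below them Pag.A05G001879.v3.1 (4.75) and Pag.B01G001209.v3.1 (3.98) overlapped, followed by Pag.B05G001855.v3.1 (2.67) and Pag.A01G001309.v3.1 (0.34). On day 3 Pag.A03G001116.v3.1 (67.4 FPKM) had moved above Pag.B03G001397.v3.1 (40.8), and Pag.A05G001879.v3.1 (1.41) had dropped below Pag.A01G001309.v3.1 (3.54). On day 6 the leading genes were Pag.A03G001116.v3.1 (79.1 FPKM), Pag.A01G001311.v3.1 (70.3), Pag.A18G000795.v3.1 (54.1) and Pag.B01G001209.v3.1 (47.1), each above the next in all libraries. Pag.B03G001397.v3.1 (42.2) and Pag.B18G000868.v3.1 (41.8) followed and overlapped each other. On day 9 Pag.B01G001209.v3.1 overlapped Pag.B18G000868.v3.1, and this gene in turn overlapped Pag.B03G001397.v3.1.

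Tested A and B models with the same chromosome number in their names were set against each other in 4 pairs, a comparison chosen after the values had been seen. The 01 pair is Pag.A01G001311.v3.1 and Pag.B01G001209.v3.1. Of the other models of that series, Pag.A01G001309.v3.1 was left unpaired and Pag.B01G001207.v3.1 was not tested. In the 03 pair the A model stood below the B model in all control libraries, at 0.796 to 0.886 times its FPKM, and above it in all 9 drought libraries, at 1.59 to 1.74 times after 3 days, 1.75 to 2.02 times after 6 and 2.07 to 2.50 times after 9. The log2 ratio of A to B was higher in drought by 1.13 on average (all 9 libraries above all 3), with p = 0.00909 in a two-sided exact permutation test of 9 against 3 libraries, the smallest it can give, and 0.0364 adjusted over the 4 pairs. Without any 1 control library the smallest p the test can give is larger, and the adjusted p was between 0.0727 and 0.145. The test treats the 9 drought libraries as interchangeable, although they come from 3 days with a batch each. Its p-values therefore describe these libraries only. In the 01 pair the A model was 1.98 to 2.56 times the B model in the control, 2.20 to 2.52 times after 3 days, 1.45 to 1.56 times after 6 and 1.504 to 1.61 times after 9.

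Over the 9 drought libraries together the 01 pair's mean log2 ratio was lower by 0.22 (adjusted p of 0.227, same exact permutation test). This mean pools unlike days. The log2 ratio averaged 1.01 in the control, 1.17 after 3 days, 0.57 after 6 and 0.63 after 9. For the reductase pair the ratio moved from between 1.00 and 1.21 on day 0 to between 1.29 and 1.30 on day 6 and between 1.30 and 1.46 on day 9, a log2 difference of 0.22 over the drought days (adjusted p of 0.0848, exact permutation test). For the 05 pair the log2 difference was -0.40 (adjusted p of 0.0727, exact permutation test). Without replicate 1 of day 3 the adjusted p of that test was 0.0242, and with a pseudocount of 0.1 the difference was 0.05. Both 05 models were at or near 0 on days 6 and 9, where the added 1 FPKM pulls their log2 ratio toward 0. The test therefore cannot show whether the balance of this pair changed. Whether reads shared between copies have a part in these ratios was not tested.

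**Figure D3:**
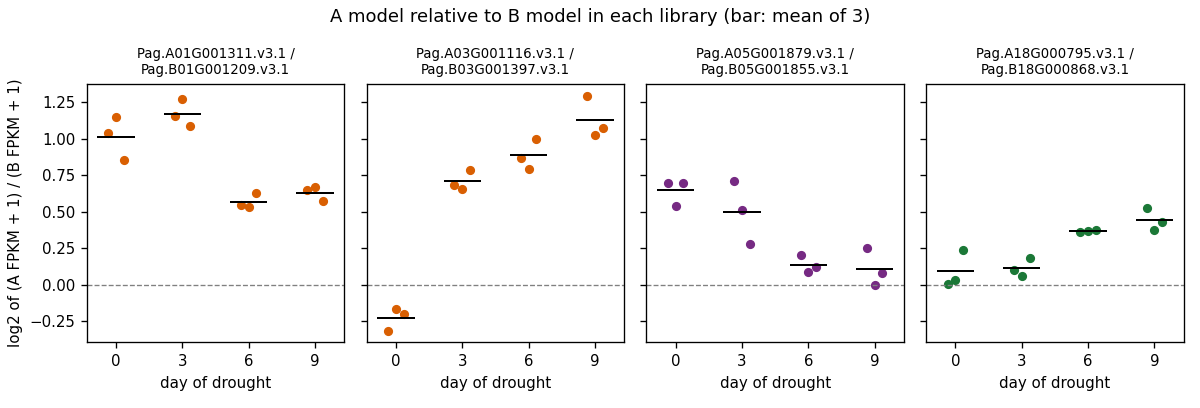
Log2 ratio of A model to B model, each as FPKM + 1 (y axis), against the day of drought (x axis) for 4 pairs, with 1 point per library and a bar at the mean of 3. The dashed line marks equal levels. The 03 pair lies below the line on day 0, with a mean of -0.23, and at 0.71, 0.89 and 1.13 on days 3, 6 and 9.

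The genes whose course was most like that of the leading member of each name were ranked among 18882 other tested genes with a KO name, by the root mean square difference of log2(FPKM + 1) over the 12 libraries after subtracting each gene's own mean. For the stay-green gene Pag.A03G001116.v3.1 they were Pag.A01G003330.v3.1 (EGY, 0.081), Pag.B02G001363.v3.1 (MYBP, 0.113) and Pag.B04G002295.v3.1 (CYP707A, 0.134). The EGY gene, named for a family of plastid membrane proteases, had 10.8 ± 0.271 FPKM in the control, 40.0 ± 1.73 after 3 days, 50.4 ± 1.45 after 6 and 41.3 ± 3.97 after 9 (SD, n = 3). For the reductase gene Pag.A18G000795.v3.1 they were Pag.A01G000815.v3.1 (ECH1, 0.085), Pag.A08G002178.v3.1 (SLC32A, VGAT, 0.119) and Pag.B03G001341.v3.1 (LGMN, 0.127). The ECH1 gene had 14.3 ± 0.240 FPKM in the control, 56.3 ± 1.99 after 3 days, 107 ± 1.82 after 6 and 91.9 ± 3.38 after 9. By the same measure the stay-green gene Pag.A01G001311.v3.1 lay at 0.094 from Pag.A18G000795.v3.1, nearer to it than the other reductase gene (0.168) or the stay-green gene Pag.B01G001209.v3.1 (0.316).

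The remaining enzymes of the route were followed through a list of KO names for chlorophyll breakdown, with 14 of 20 genes tested and the other 6 at or below 0.24 FPKM. On day 3, 8 of the 14 rose, 2 fell and 4 did not pass, with a median log2 change of 0.53. On day 6, 9 rose, 2 fell and 3 did not pass (median 0.41), and on day 9, 7 rose, 2 fell and 5 did not pass (median 0.27). Over all tested genes 22.6%, 29.2% and 30.9% rose and 25.2%, 47.6% and 46.0% fell, and with 76.8% and 76.9% called in either direction on days 6 and 9 the number of calls in the list does not set it apart on those days. The rises on day 9 numbered 10 with median-ratio scaling and 11 with quantile normalisation.

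HCAR completes the conversion of chlorophyll b to chlorophyll a that NYC1 opens, and both of its genes fell. Pag.A10G000791.v3.1 went from 18.88, 19.45 and 20.95 FPKM in the control libraries to 9.05, 9.08 and 9.93 on day 6. Pag.B10G000521.v3.1 went over the 4 days from 17.3 ± 0.780 to 13.1 ± 0.958, 8.26 ± 0.431 and 7.63 ± 0.305 FPKM (SD, n = 3). Their log2 changes on day 6 were -1.004 and -0.99, with an adjusted p of 8.46e-09 and 3.24e-08 from limma. CAO catalyses the formation of chlorophyll b, the opposite direction to the reductases. All 4 of its genes fell on days 3, 6 and 9, where 25.2%, 47.6% and 46.0% of all tested genes fell. The most abundant, Pag.A05G001807.v3.1, went from 80.4 ± 2.83 FPKM to 34.9 ± 0.554, 6.10 ± 0.0757 and 7.19 ± 0.684. Pag.B05G001784.v3.1 went from 46.9 ± 0.308 to 2.94 ± 0.488 FPKM by day 6, Pag.B02G000900.v3.1 from 35.6 ± 2.55 to 1.62 ± 0.233 and Pag.A02G001912.v3.1 from 20.6 ± 1.35 to 1.60 ± 0.159. The log2 changes of the 4 genes on day 6 lay between -3.81 and -3.05.

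In a list of the chlorophyll cycle and of phytyl attachment (CAO, HCAR and the chlorophyll synthase chlG), 8 of 10 genes were tested. On day 3, 7 fell and 1 did not pass, and on days 6 and 9 all 8 fell, with a median log2 change of -0.78, -2.13 and -2.11, where 25.2%, 47.6% and 46.0% of all tested genes fell. The HCAR genes are counted here as well as in the breakdown list, where they are the 2 that fell. The largest fall in the chlorophyll cycle list on day 6 was that of CAO Pag.B02G000900.v3.1. Between days 6 and 9, 3 genes rose and 5 did not pass, where 12.9% of all tested genes rose, but with only these 2 days in the fit 0 rose, and with quantile normalisation or without replicate 2 of day 6 only 1 rose.

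PAO opens the ring of pheophorbide a, the product of magnesium and phytol removal, and RCCR acts on the linear product. A pair of PAO genes rose on every day and had its highest means on day 6. Pag.A04G002158.v3.1 rose from 15.4 ± 0.848 FPKM to 40.3 ± 1.43, 110 ± 3.31 and 92.5 ± 3.38, and Pag.B04G002127.v3.1 from 6.54 ± 0.797 to 19.4 ± 0.771, 46.5 ± 3.11 and 40.0 ± 2.87 (SD, n = 3), with log2 changes of 2.76 and 2.66 on day 6. PAO Pag.B09G000027.v3.1 did not pass on day 3 and rose by 0.36 on day 6 and 0.48 on day 9. Pag.A09G000045.v3.1 lay between 1.15 and 2.09 FPKM in all libraries and passed on no day (adjusted p of 0.391 to 0.692 from limma).

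All 3 RCCR genes rose on day 6, where 29.2% of all tested genes rose (38.5% with median-ratio scaling). Pag.A07G002003.v3.1 went from 19.3 ± 1.15 to 74.7 ± 1.93 FPKM, a log2 change of 1.90, after 0.25 on day 3. Pag.B07G001140.v3.1 had a change of 0.64 on day 6 and 0.40 on day 9, and Pag.A07G002002.v3.1 of 0.45 on day 6 and 0.14 on day 9, where it did not pass (adjusted p of 0.162 from limma) unless scaled by median ratios or quantiles, at 0.33 and 0.30. On day 3 these genes had log2 changes of -0.15 and 0.11 and did not pass, although without replicate 3 of day 3 that of Pag.B07G001140.v3.1 was -0.22 with an adjusted p of 0.00963 from limma.

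Phytol is removed by pheophytinase in senescing leaves of Arabidopsis, whereas chlorophyllase can remove it from chlorophyll. The 5 tested chlorophyllase genes (E3.1.1.14) all rose on day 3, where 22.6% of all tested genes rose. Their log2 changes lay between 0.81 and 2.07 on that day, and then the genes parted. Pag.A05G002153.v3.1 reached 1 FPKM only on drought days, and Pag.A05G002146.v3.1 would not have passed the filter without day 3. Counts that include these genes are therefore descriptions. Pag.A05G002153.v3.1 went on from 0.273 ± 0.0802 FPKM on day 0 and 3.74 ± 0.272 on day 3 to 9.60 ± 0.882 on day 6. Pag.B05G002135.v3.1 went from 3.05 ± 0.344 to 16.0 ± 0.885 and 12.4 ± 0.739 FPKM on the same days. Pag.B10G000725.v3.1 went from 4.56 ± 0.229 to 11.1 ± 0.625 FPKM on day 3 and had 5.63 ± 0.823 on day 6, a change of 0.25 with an adjusted p of 0.0303 from limma, which was between 0.0505 and 0.129 without replicate 1 or 2 of day 0 or replicate 2 or 3 of day 6. On day 9 its change of 0.05 did not pass, but with median-ratio scaling it was 0.23 (limma, adjusted p 0.0467) and with quantile normalisation 0.30 (limma, adjusted p 0.0110). Pag.A10G000996.v3.1 and Pag.A05G002146.v3.1 had 8.56 ± 0.971 and 2.39 ± 0.113 FPKM on day 3 but 4.04 ± 0.196 and 0.937 ± 0.0666 on day 6, against 3.88 ± 0.175 and 0.940 ± 0.113 on day 0, and did not pass on day 6 or 9. With quantile normalisation both passed on those days, as higher, and Pag.A10G000996.v3.1 also with median-ratio scaling.

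No KO name for pheophytinase was matched, and 3 models with that gene ontology term, looked up after the annotation had been seen, were used instead, 2 of them tested. Pag.A09G000548.v3.1 rose from 24.3 ± 1.62 FPKM to 34.9 ± 2.29, 58.8 ± 2.60 and 48.1 ± 1.78, highest on day 6. Pag.B09G000544.v3.1 had 36.5 ± 1.95, 44.6 ± 3.36, 42.3 ± 2.43 and 33.3 ± 2.32 FPKM, with its highest mean on day 3, whose libraries overlapped those of day 6. Its log2 change was 0.28 on day 3 (adjusted p of 0.00548 from limma). On day 6 it was 0.21 (adjusted p of 0.0169 from limma, and between 0.0506 and 0.0651 without replicate 1 or 2 of day 0 or replicate 3 of day 6). On day 9 it was -0.13 and did not pass (adjusted p of 0.113 from limma).

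**Figure D4:**
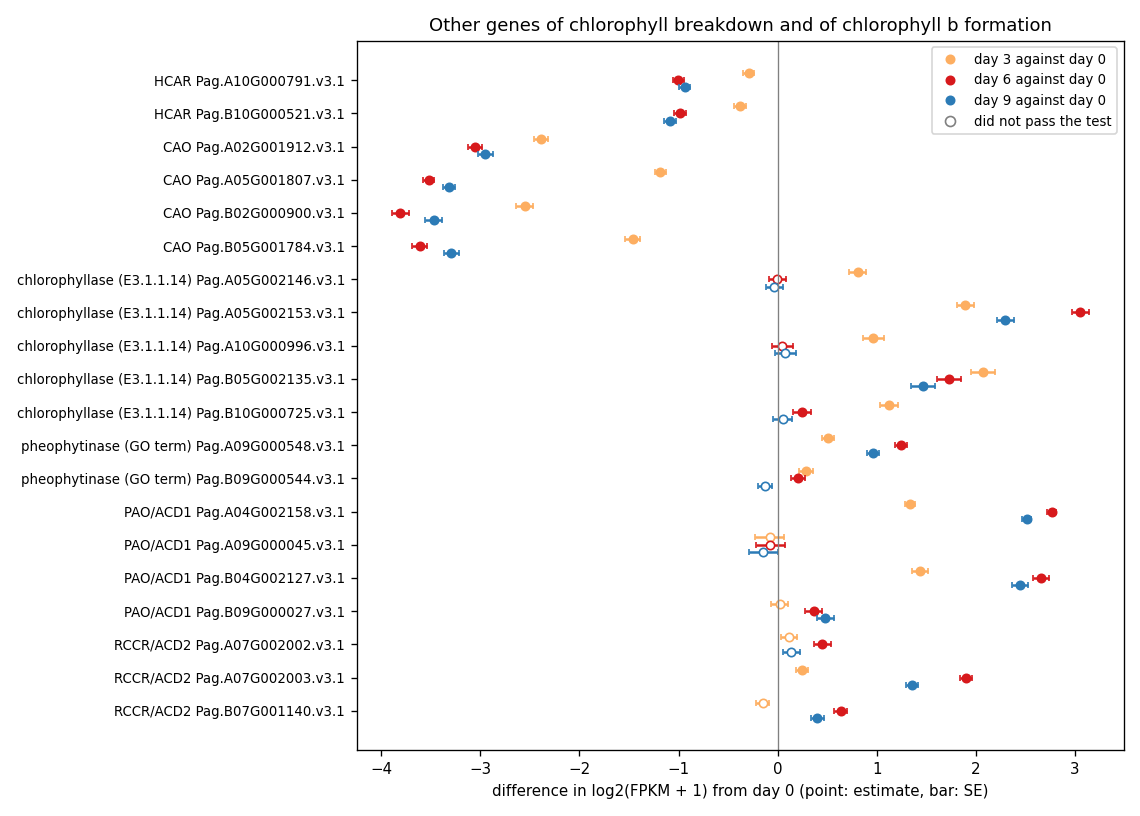
Estimated difference in log2(FPKM + 1) from day 0 (x axis) for the tested genes of the other breakdown steps and of chlorophyll b formation (y axis), with bars of 1 SE from limma, days 3, 6 and 9 in separate colours and open circles where the test was not passed. HCAR and CAO genes lie left of 0 on every day, the lowest at -3.81, and a pair of PAO genes reaches 2.76 and 2.66 on day 6.

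In Arabidopsis, the transcription factors EIN3, ABF, ABI5 and several PIF proteins act on stay-green or chlorophyll b reductase genes. Of 65 models named EIN3, ABF or PIF3, 43 were tested, and ABI5, PIF4 and PIF5 matched no KO name. After 3 days 21 rose, 7 fell and 15 did not pass (median log2 change 0.24). After 6 days 23 rose, 13 fell and 7 did not pass (median 0.35), and after 9 days these counts were 24, 15 and 4 (median 0.29). These counts, and those by name, stand beside 47.7%, 76.8% and 76.9% of all tested genes called on the same days, 22.6%, 29.2% and 30.9% of them as higher. With median-ratio scaling 28 regulators rose and 12 fell on day 6. By name, 7 of 12 EIN3 genes rose and 4 fell on day 6, 16 of 26 ABF genes rose and 6 fell, and of 5 PIF3 genes 0 rose and 3 fell. The largest rise on that day was that of ABF Pag.A04G001436.v3.1, from 8.50 ± 0.399 to 36.7 ± 1.11 FPKM, after 45.5 ± 1.13 on day 3. The largest fall was that of ABF Pag.A02G002602.v3.1, with 15.1 ± 1.58 FPKM in the control, 15.3 ± 1.45 after 3 days and 1.63 ± 0.261 after 6.

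The antenna proteins are the substrate side of the reductases, since they bind most of the chlorophyll b of a leaf. Of 52 antenna models 49 were tested, and their median log2 change was -0.89, -4.47 and -4.72 after 3, 6 and 9 days, with 43, 49 and 49 of them falling, where 25.2%, 47.6% and 46.0% of all tested genes fell. The largest fall on day 6 was that of LHCB1 Pag.B05G002421.v3.1, with 598.58, 664.53 and 641.46 FPKM on day 0 and 1.51, 0.27 and 1.87 on day 6. Between days 6 and 9, when 6 of the stay-green and reductase genes fell, 10 antenna genes rose, 6 fell and 33 did not pass, where 12.9% of all tested genes rose and 8.73% fell. With only these 2 days in the fit 5 antenna genes rose and 3 fell, and with median-ratio scaling 7 rose and 8 fell.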

How the data were processed

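The authors deposited FPKM values with 2 decimals for 85392 gene models in 12 leaf libraries; the sources used here do not give the aligner, genome build or counting program. Tables of selected genes hold subsets, those for days 3 and 6 being identical, and served only for membership. Columns were matched to samples by group and replicate in their names. Values were analysed as log2(FPKM + 1) for genes with at least 1 FPKM in at least 3 libraries, with limma 3.58.1 in R 4.3.3 (1 mean per day, all libraries, intensity trend, robust moderation) and Benjamini-Hochberg adjustment over all 40736 tested genes; 3 members that reached 1 FPKM only on some days were also tested without the filter. Single ratios used exact permutation tests in scipy 1.17.1, and tables and figures Python 3.11.15, pandas 2.3.3 and matplotlib 3.10.9. Members and lists were chosen with earlier results of these data known. KO aliases were matched singly, which the planned whole-entry match would have missed, and SRP43, which shares the alias CAO, was left out. All members were named, with every tested breakdown gene and CAO, the largest called rise and fall of the other lists on day 6, and the 3 nearest genes by course. The procedure was tested on simulated data for days 0 and 3. Of genes given a log2 change of 1 and 2, 87% and 94% were called, against 0.0296% of those given none. Changes were given only to genes with a higher day 0 level than Pag.A05G001879.v3.1 (4.75 FPKM), so this gene and members below it were not covered. Alternatives covered pseudocounts, filters, scaling, variance model, samples, replicates left out and the replicate block. Sequences were not used here.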

Additional observations from a re-analysis of the deposited data

Results flagged for a closer look

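By limma's test of the difference between days, 8 of the 9 tested genes changed from day 3 to day 6 and 6 from day 6 to day 9. Of all tested genes 72.6% and 21.7% were called in these steps, so the first count sets these genes little apart. From day 3 to day 6 the log2 difference was 1.41 for Pag.A01G001309.v3.1, 1.06 for Pag.A01G001311.v3.1, 1.66 for Pag.B01G001209.v3.1 and 0.23 for Pag.A03G001116.v3.1. In the same step it was 0.87 for Pag.A18G000795.v3.1 and 0.61 for Pag.B18G000868.v3.1, and it was -1.13 for Pag.A05G001879.v3.1 and -0.76 for Pag.B05G001855.v3.1. From day 6 to day 9 it was -0.41 for Pag.A01G001311.v3.1, -0.47 for Pag.B01G001209.v3.1, -0.26 for Pag.A03G001116.v3.1 and -0.50 for Pag.B03G001397.v3.1, and -0.32 and -0.39 for the reductase genes Pag.A18G000795.v3.1 and Pag.B18G000868.v3.1. Pag.A01G001309.v3.1, Pag.A05G001879.v3.1 and Pag.B05G001855.v3.1 passed the filter only through the days on which they were high, so their differences are descriptions. Pag.B05G001855.v3.1 lay below 1 FPKM in every library of days 3 and 6. The calls of Pag.A03G001116.v3.1 in both steps were lost without certain single libraries. Days and batches cannot be told apart here.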

How the results depend on the processing

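Counts of stay-green and NOL/NYC1 genes called kept within 1.5 times in all 21 alternatives, and with 1 library left out were 9 on days 3, 6 and 9, 7 to 8 from day 3 to day 6 and 5 to 6 from day 6 to day 9. With the replicate block they were 9, 9, 9, 8 and 6. All these counts run over the 9 tested genes, so the alternative without the filter leaves out Pag.B01G001207.v3.1, which did not pass there. With a filter of a mean FPKM of at least 5, only 7 genes were tested, and all 7 rose on days 3, 6 and 9. The falling genes Pag.A05G001879.v3.1 and Pag.B05G001855.v3.1 were not tested under it. The block moved the calls over all genes from 19446 to 18880 on day 3 and from 8831 to 8084 between days 6 and 9. Deviations of same-numbered libraries had r between -0.03 and 0.04 across genes in 18 pairs, and libraries correlated best with their own number in 9 of 36 cases. Of 935 single-gene alternatives for the tested members 925 kept direction and call. Those of members or other named genes that reversed had not passed as reported, and the cause was not tested. With 1 library left out, Pag.A05G001879.v3.1 between days 6 and 9 ranged from -0.0614 to 0.0641, ABF Pag.A02G002602.v3.1 on day 3 from -0.0655 to 0.0946, PAO Pag.B09G000027.v3.1 on day 3 from -0.0506 to 0.0554, PAO Pag.A09G000045.v3.1 on day 6 from -0.193 to 0.0611, and chlorophyllase Pag.A05G002146.v3.1 from -0.0272 to 0.0461 on day 6 and from -0.0742 to 0.0346 on day 9. With median-ratio scaling Pag.A05G002146.v3.1 was 0.13 and 0.0682 on days 6 and 9, Pag.A09G000045.v3.1 was 0.10 on day 6 and Pag.B09G000544.v3.1 was 0.0818 on day 9. With quantile normalisation Pag.A05G002146.v3.1 was 0.46 and 0.34 and Pag.A09G000045.v3.1 was 0.36 and 0.20 on days 6 and 9. The ratio of the 05 pair was 0.0497 with a pseudocount of 0.1. Depth per library is known only roughly, which limits genes under 1 FPKM most.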
